A study of Rattus norvegicus with 33 samples.

Results

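S100g, Greb1, Ltf, Wnt4, Igf1 and Ctsd are genes long used as readouts of estrogen action, mostly in the rodent uterus and in breast cancer cells. They were taken by their symbols in the array annotation, 6 of the 23297 genes measured by an RNA array in rat prostate, and 5 of the 6 were measurable. The animals were male Sprague-Dawley rats injected under the skin with 2.5 mg/kg estradiol benzoate (EB), a long-acting ester of estradiol, on postnatal days (PND) 1, 3 and 5, or with vehicle on those days. On PND 90 some of each kind received tubes that release hormone, 2 with testosterone and 1 with estradiol (T+E), and the rest 3 empty tubes. Prostates were taken on PND 30, before any implant, and on PND 100 and PND 145, after 10 and 55 days of implants.

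The adult groups were EB+T+E, EB alone, T+E alone and control at each of PND 100 and PND 145, and the groups at PND 30 were EB and control. The EB and control groups of PND 30 and the EB group of PND 145 held 4 arrays, and the other 7 groups held 3. Estradiol was never given without testosterone in the adult, so the response to T+E cannot be divided between the hormones. The labels call the tissue whole prostate, while the series title says dorsolateral prostate, and they state 3 to 4 litters per group without tying arrays to litters. The p-values therefore measure the spread between these samples. In whole tissue, fewer cells of a type and less RNA per cell cannot be told apart.

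Estrogens bind the nuclear receptors ESR1 and ESR2, which occupy estrogen response elements or act through other DNA-bound factors, and the membrane receptor GPER1. In the rodent prostate ESR1 is found mainly in the stroma and ESR2 mainly in the epithelium. Estrogen given around birth is known to alter the adult gland for life, and adult exposure to testosterone with estradiol is used in rats to provoke inflammation and precancerous lesions. The question for the 6 genes is which of them differ long after the neonatal doses and which differ under the adult implants.

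S100g encodes calbindin-D9k, a small cytosolic calcium-binding protein that estradiol induces in rat uterus. Greb1 encodes a nuclear cofactor of ESR1. Ltf encodes lactoferrin, an iron-binding secretory protein. Wnt4 encodes a secreted Wnt ligand, Igf1 encodes insulin-like growth factor 1, which is made largely by stroma in the prostate, and Ctsd encodes cathepsin D, an aspartic protease of lysosomes.

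Each gene was read by its brightest probe, a 60-base oligonucleotide, and the probe sequences are shown because each value below is the brightness of that stretch of the transcript. Positions are those the array design gives on build rn4. The S100g probe lies at chrX:52449257-52449316 on the plus strand and begins at base 319 of its transcript. The Greb1 probe lies at chr6:40352903-40352962 on the minus strand and begins at base 7666. The Ltf probe is at chr8:115438446-115438505, plus strand, from base 2066. The Wnt4 probe is at chr5:156082786-156082845, plus strand, from base 798. The Igf1 probe is at chr7:24587916-24587975, plus strand, from base 584. The Ctsd probe is at chr1:202619669-202619727, minus strand, from base 1931. The design does not state which of these positions are untranslated.
S100g: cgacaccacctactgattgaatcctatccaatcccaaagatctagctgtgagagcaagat
Greb1: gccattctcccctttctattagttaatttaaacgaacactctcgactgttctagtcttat
Ltf: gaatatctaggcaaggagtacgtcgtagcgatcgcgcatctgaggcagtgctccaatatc
Wnt4: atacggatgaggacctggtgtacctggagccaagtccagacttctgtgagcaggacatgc
Igf1: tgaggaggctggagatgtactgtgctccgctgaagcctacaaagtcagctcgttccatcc
Ctsd: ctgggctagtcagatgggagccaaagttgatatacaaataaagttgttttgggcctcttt

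A level is log2 of the background-subtracted spot intensity minus log2 of the same array's 75th percentile, so 0 is the brightness of the probe at that percentile. Levels of different genes come from different probes and are not set against each other. Between 61.5% and 68.9% of probes were well above background per array, no spot was saturated, and the 75th percentile lay between 1694 and 4737 intensity units. Correlations between arrays of a group had their lowest value, 0.864, in the EB+T+E group of PND 100 and their highest, 0.986, in the control group of PND 100. The number of arrays limits the precision. Some control arrays had high signal of genes typical of neighbouring organs, and where these transcripts came from was not tested. Seminal vesicle products summed to 218 times the 75th percentile on control array 3 of PND 100 and 262 times on control array 2 of PND 145, against 80.4 to 126 times on the other control arrays. Spermatid products summed to 70.5 times on that PND 145 array, and to 0.0248 to 1.17 times on the other control arrays. Member calls that change without these 2 arrays are given with and without them. For other genes this is not given. Most calls over all genes in EB against control at PND 100 and PND 145 were lost without these arrays. Such counts also moved with single arrays. Leaving out 1 array of the compared groups at a time, these included, gave 7 to 2704 calls at PND 100 and 6 to 223 at PND 145.

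**Figure D1:**
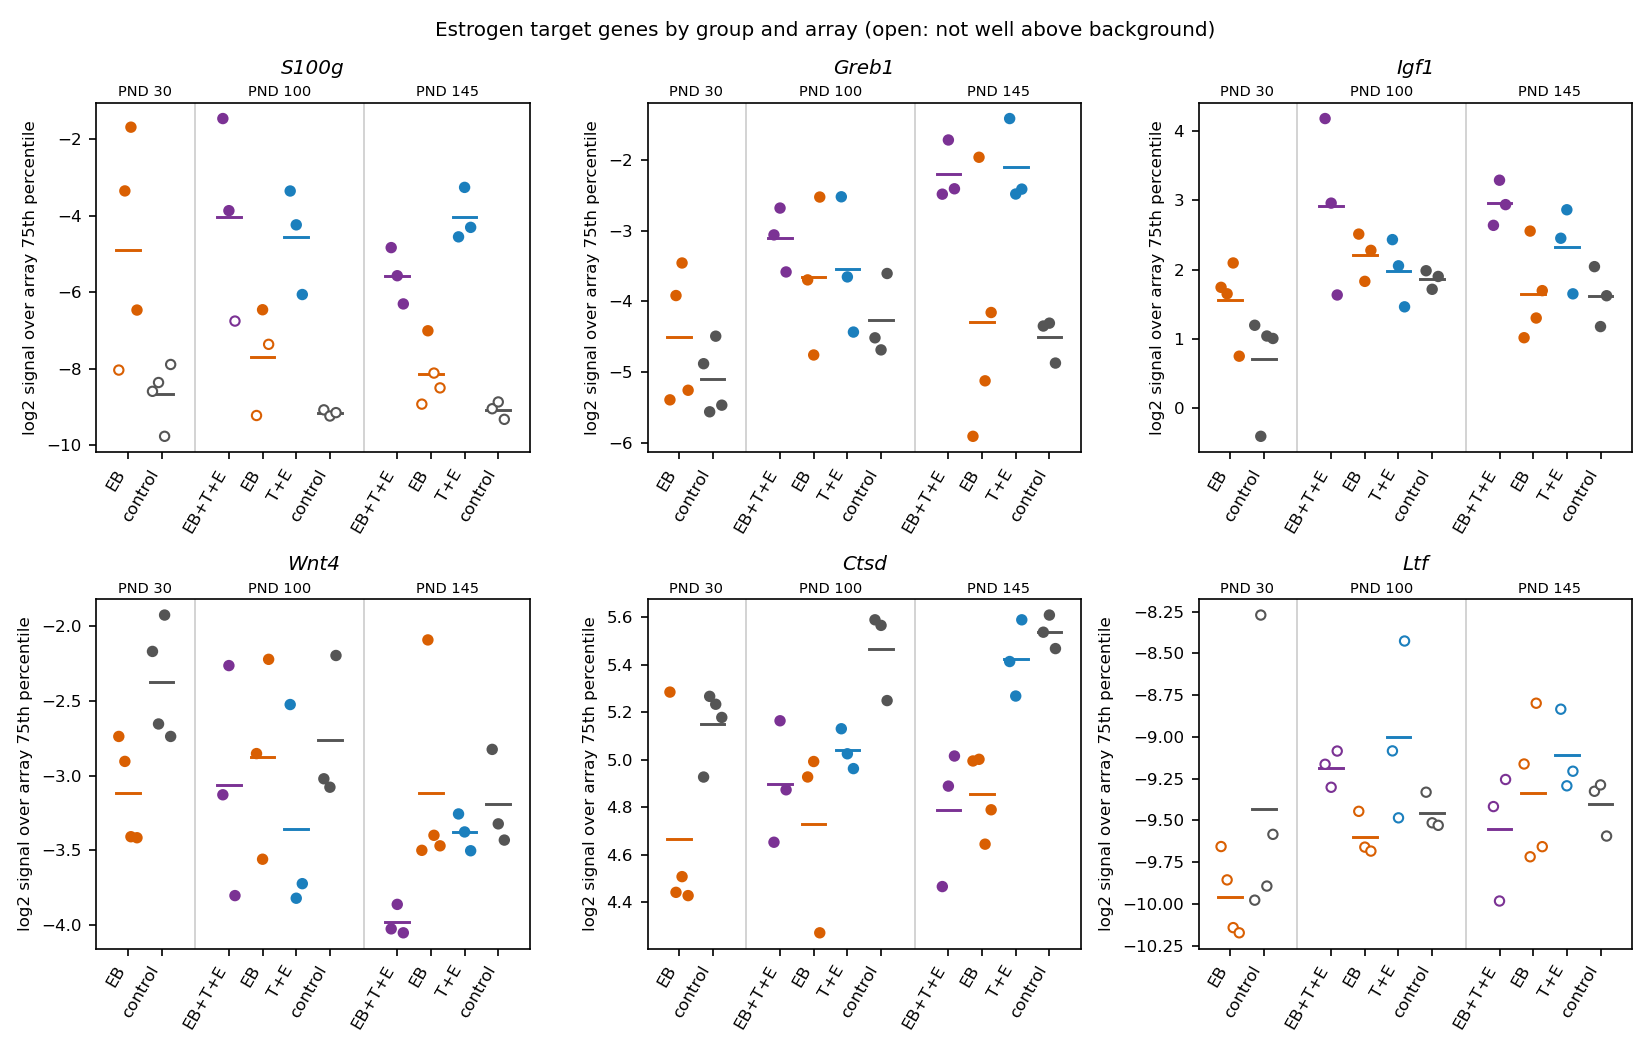
Level of each of the 6 genes on every array (points; log2 of signal relative to the array's 75th percentile) with the group mean (line), by age and by group; open points were not well above background. S100g spans 5.13 log2 units between its highest and lowest group means and Ctsd 0.87, and all Ltf points are open.

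Genes were tested with limma across all 33 arrays, and a gene was called where its p-value, adjusted over all 23297 genes of a comparison by the Benjamini-Hochberg method, was under 0.05. With EB alone, 0 of the 5 measurable members were called against control at PND 30 (3 had an unadjusted p under 0.05 in limma), where 0.0386% of all genes were called. At PND 100, 1 of 5, Ctsd, was called in EB against control, with 2.69% of all genes called. At PND 145, 0 of 5 were called in EB against control (1 had an unadjusted p under 0.05 in limma), beside 0.571% of all genes. With T+E alone, 0 of 5 were called against control at PND 100 (2 had an unadjusted p under 0.05 in limma) and 0.193% of all genes were. At PND 145, 0 of 5 were called in T+E against control (again 2 had an unadjusted p under 0.05 in limma), beside 0.382% of all genes.

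The calls came mostly with both exposures. In EB+T+E against control, 1 of 5 members was called at PND 100 (S100g), where 12.6% of all genes were called. At PND 145, 4 of 5 were called in EB+T+E against control, S100g, Greb1 and Igf1 higher and Ctsd lower, with 35.3% of all genes called. In EB+T+E against EB, 0 of 5 were called at PND 100 (1 had an unadjusted p under 0.05 in limma; 1.71% of all genes called) and 2 of 5, Greb1 and Igf1, at PND 145 (22.9%). Against T+E, 0 of 5 were called in EB+T+E at PND 100 (0 with an unadjusted p under 0.05 in limma; 3.99% of all genes called) and 1 of 5, Ctsd, at PND 145 (21.3%). The PND 145 comparisons of EB+T+E thus had a high background, and these comparisons share groups, so their calls are not separate evidence. A larger unadjusted p passes the adjusted threshold where more genes differ, so calls do not rank differences between comparisons.

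S100g was high under the adult implants, with or without neonatal EB, and as high on some EB arrays of PND 30, whose mean lay above that of EB+T+E at PND 145. After 55 days of implants it was not called in T+E against control but was called in EB+T+E against control, and it was lower in EB than in T+E. The fitted difference from control was nevertheless larger in T+E, 5.05 against 3.52, with a smaller unadjusted p (limma, 2.06e-04 against 0.00589). The threshold on adjusted p is easier to pass where more genes differ, as in EB+T+E. On all 10 control arrays the S100g probe was not well above background, at levels from -9.77 to -7.89. Folds against the controls are therefore given as lower bounds. They were computed from the lowest signal among probes well above background on each control array, or the probe's own signal where that was higher. This floor is not strict, as the S100g probe was not well above background at -6.76 on EB+T+E array 3 of PND 100. Treated arrays not well above background stayed in the means, and some alternative settings gave smaller differences. The words at least, here and for other genes, hold only for this floor and scaling.

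At PND 30, S100g stood at -8.04, -3.35, -1.68 and -6.47 on the EB arrays, against -8.60, -8.37, -9.77 and -7.89 on the control arrays. Of the EB arrays, 3 of 4 were well above background, and EB array 1 lay within the control range. The mean was -4.89 ± 2.89 in EB and -8.66 ± 0.80 in control (SD, n = 4 each), a difference of 3.77 ± 1.02 log2 units (SE), at least 6.43-fold higher, which was not called (limma adjusted p = 0.142). Without EB array 1, it was 4.82 and called (limma adjusted p = 0.0106). Each slide held 1 array of each group at PND 30, and the differences within slides were 0.56, 8.09, 1.90 and 4.54. In the adult with EB alone, most arrays were not well above background. At PND 100, S100g stood at -9.23, -6.46 and -7.37 on EB arrays, of which 1 of 3 was well above background, against -9.08, -9.24 and -9.15 on control arrays (limma adjusted p = 0.481; 95% interval of the difference -0.94 to 3.88). On EB arrays of PND 145 it stood at -8.93, -7.01, -8.12 and -8.51, 1 of 4 well above background, against -9.05, -8.88 and -9.33 on control arrays (limma adjusted p = 0.722; 95% interval -1.31 to 3.20). These intervals include both no difference and several-fold differences. The EB difference of PND 100 minus that of PND 30 was -2.30 ± 1.55 (limma adjusted p = 0.745), so a change of the EB difference with age was not shown.

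Under T+E alone, S100g was well above background on all 6 arrays. At PND 100, it stood at -3.35, -4.24 and -6.06 on T+E arrays, against -9.08, -9.24 and -9.15 on control arrays. At PND 145, it stood at -4.55, -3.26 and -4.30 on T+E arrays, against -9.05, -8.88 and -9.33 on control arrays. The groups did not overlap at either age. The difference was 4.61 ± 1.17 at PND 100 (at least 6.34-fold higher; limma adjusted p = 0.107) and 5.05 ± 1.17 at PND 145 (at least 8.70-fold higher; limma adjusted p = 0.0510), and neither was called. A fit of the compared groups alone called both (limma adjusted p = 0.0378 and 0.0257). Over 10 alternative settings, that fit among them, the difference was 1.38 to 4.88 at PND 100 and 1.69 to 5.17 at PND 145. Of these settings, 8 did not call the PND 100 difference and 5 did not call that of PND 145. No fit with 1 array left out called either. On the 3 slides that held both groups the differences were 5.80, 4.84 and 3.18 at PND 100 and 4.50, 5.62 and 5.03 at PND 145.

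With EB and T+E together, S100g stood at -1.46, -3.87 and -6.76 at PND 100, the last not well above background, against -9.08, -9.24 and -9.15 on control arrays. It rose by 5.13 ± 1.17, at least 9.12-fold (limma adjusted p = 0.00614). The call was lost without EB+T+E array 1 (3.85, limma adjusted p = 0.0755) and in a fit of the compared groups alone (limma adjusted p = 0.177). At PND 145, the EB+T+E arrays stood at -4.83, -5.57 and -6.31, against -9.05, -8.88 and -9.33 on control arrays, with no overlap. The rise was 3.52 ± 1.17, at least 3.01-fold (limma adjusted p = 0.0223). It was no longer called without EB+T+E array 1 (limma adjusted p = 0.0882), EB+T+E array 2 (0.0554) or control array 3 (0.0582), nor without the 2 control arrays high in seminal vesicle products (0.0549). With background handled by the normexp method, which compresses dim probes, the differences fell to 1.89 at PND 100 and 0.66 at PND 145 and were not called (limma adjusted p = 0.0669 and 0.441).

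Set against T+E alone, EB+T+E did not differ detectably in S100g. The difference was 0.52 ± 1.17 at PND 100 (limma adjusted p = 0.821) and -1.53 ± 1.17 at PND 145 (limma adjusted p = 0.374). At PND 145 the EB+T+E arrays nevertheless all lay below the T+E arrays, at -4.83 or lower against -4.55 or higher. Against EB alone, EB+T+E was higher by 3.66 ± 1.17 at PND 100 and by 2.57 ± 1.10 at PND 145, neither called (limma adjusted p = 0.106 and 0.0896). Only 1 of 3 and 1 of 4 EB arrays were well above background, so these fitted differences rest largely on the background level of the probe. Without EB+T+E array 3 the PND 100 difference was 5.02 and called (limma adjusted p = 0.0167), and a fit of the compared groups alone called the PND 145 difference (limma adjusted p = 0.0221).

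Greb1 was called higher in EB+T+E at PND 145, with like levels in T+E, and in no group given EB alone. Its levels at PND 145 stood at -2.48, -1.72 and -2.41 on EB+T+E arrays, -5.91, -1.96, -5.12 and -4.16 on EB arrays, -1.41, -2.48 and -2.41 on T+E arrays, and -4.35, -4.31 and -4.87 on control arrays. The arrays of both implant groups lay above all control arrays, and EB array 2 alone among the EB arrays lay in the range of the implant groups. Greb1 rose 4.95-fold in EB+T+E over control (log2 2.31 ± 0.71, limma adjusted p = 0.0138) and 4.24-fold over EB (2.08 ± 0.66, limma adjusted p = 0.0241). The difference of T+E from control was as large, 5.30-fold (2.41 ± 0.71), but was not called (limma adjusted p = 0.149), and EB+T+E minus T+E was -0.10 ± 0.71 (limma adjusted p = 0.939). The call against control was lost without EB+T+E array 2 (2.06, limma adjusted p = 0.0592). The call against EB was lost without EB array 1 (1.54, 0.106), EB array 3 (1.81, 0.0747), EB+T+E array 1 (2.23, 0.0565) or EB+T+E array 2 (1.84, 0.108).

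At PND 100, after 10 days of implants, Greb1 stood at -3.06, -2.68 and -3.58 on EB+T+E arrays, -3.70, -4.76 and -2.52 on EB arrays, -2.52, -3.65 and -4.43 on T+E arrays, and -4.51, -4.69 and -3.61 on control arrays. Only the EB+T+E arrays lay wholly above the control arrays. The differences from control were 1.16 ± 0.71 in EB+T+E, 0.61 ± 0.71 in EB and 0.73 ± 0.71 in T+E, none called (limma adjusted p = 0.293, 0.649 and 0.937). At PND 30, Greb1 averaged -4.51 ± 0.97 in EB and -5.10 ± 0.51 in control (SD, n = 4 each; limma adjusted p = 0.702), and the EB arrays, from -5.39 to -3.46, overlapped the control arrays, from -5.56 to -4.49.

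The array holds 6 Greb1 probes, and those nearer the transcript's end carried more of the difference. The log2 difference of EB+T+E from control at PND 145 was 0.73 for the probe from base 1757, 0.93 for that from base 5621, 2.07 for that from base 7005 and 2.31 for that from base 7666. The difference of EB+T+E from EB was 0.53, 1.28, 2.45 and 2.08 for the same probes. The first and the second of these probes were well above background on 23 and 19 of the 33 arrays, the others on 30 and 33, and both remaining probes on 0. Whether transcript forms or probe brightness made the probes differ was not tested.

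**Figure D2:**
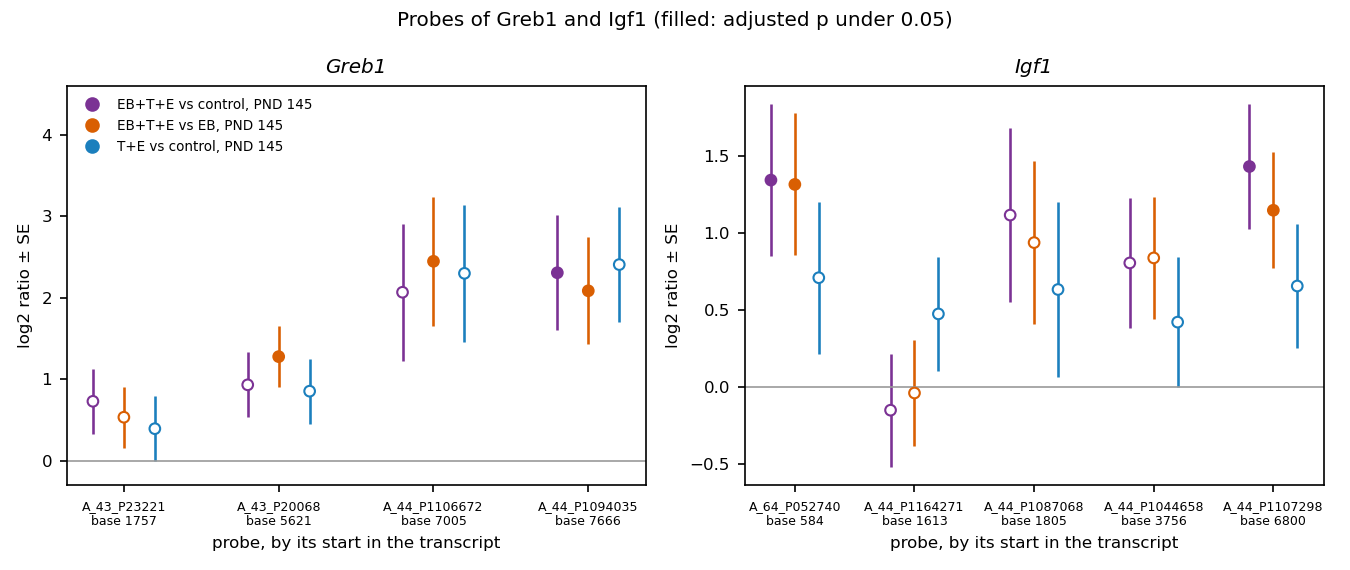
Log2 difference of each Greb1 and Igf1 probe that passed the filter, by the base of the transcript at which the probe begins (horizontal axis), in EB+T+E against control, EB+T+E against EB and T+E against control at PND 145; bars are SE. The 2 Greb1 probes from bases 7005 and 7666 lie above 2 in all 3 comparisons, and the Igf1 probe from base 1613 lies near 0 in both EB+T+E comparisons.

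Igf1 was called higher with EB and T+E together at PND 145, and with neither treatment alone at any age. At PND 145, it stood at 2.64, 3.29 and 2.94 on EB+T+E arrays, 1.01, 2.56, 1.30 and 1.70 on EB arrays, 2.45, 2.87 and 1.65 on T+E arrays, and 2.04, 1.18 and 1.62 on control arrays. The EB+T+E arrays lay above every EB and every control array and overlapped the T+E arrays. Igf1 rose 2.54-fold in EB+T+E over control (log2 1.34 ± 0.49, limma adjusted p = 0.0362) and 2.49-fold over EB (1.32 ± 0.46, limma adjusted p = 0.0406). EB+T+E minus T+E was 0.63 ± 0.49, T+E minus control 0.71 ± 0.49 and EB minus control 0.03 ± 0.46 (limma adjusted p = 0.383, 0.732 and 0.986). The interaction of EB and T+E was 0.61 and not called, so the data do not show that the joint difference exceeds the sum of the single ones.

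The Igf1 calls lay close to the threshold. The call over control was lost without control array 2 (1.12, limma adjusted p = 0.136), control array 3 (1.35, 0.0730), EB+T+E array 1 (1.50, 0.0541), EB+T+E array 2 (1.18, 0.122) or EB+T+E array 3 (1.35, 0.0614). It was lost too without the 2 control arrays high in seminal vesicle products (1.12, limma adjusted p = 0.147). The call over EB was lost without any one of the EB+T+E arrays or of EB arrays 1, 3 and 4 (1.11 to 1.47, limma adjusted p = 0.0633 to 0.154). Among the other Igf1 probes, those from bases 1805, 3756 and 6800 differed by 1.12, 0.81 and 1.43 in EB+T+E against control, and that from base 1613 by -0.15. The last of these is shown because it departs from the others, and it ends in an alternating run of pyrimidines:
Igf1, base 1613: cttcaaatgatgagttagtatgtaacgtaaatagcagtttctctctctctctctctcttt

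At PND 100, Igf1 stood at 4.18, 2.96 and 1.63 on EB+T+E arrays, 2.51, 1.83 and 2.28 on EB arrays, 2.43, 2.05 and 1.46 on T+E arrays, and 1.98, 1.71 and 1.90 on control arrays. EB+T+E array 1 was the highest of all 33 arrays and EB+T+E array 3 lay below the controls. EB+T+E minus control was 1.06 ± 0.49 (limma adjusted p = 0.160), and without EB+T+E array 3 it was 1.71 and called (limma adjusted p = 0.0135). EB+T+E minus T+E was 0.94 (limma adjusted p = 0.264), and without that array 1.59 and called (limma adjusted p = 0.0200). At PND 30, Igf1 averaged 1.56 ± 0.57 in EB and 0.71 ± 0.75 in control (SD, n = 4 each; difference 0.85 ± 0.43, limma adjusted p = 0.433). Its level was 1.16 ± 0.46 higher in control at PND 100 than in control at PND 30, where the arrays did not overlap (limma adjusted p = 0.228).

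Fibroblast and immune markers rose in EB+T+E at PND 145, where Igf1 was called higher. Between control at PND 30 and at PND 100, fibroblast sums and Igf1 went opposite ways. Control arrays of PND 30 had fibroblast sums of 49.9 to 62.3 times the 75th percentile. Their mean Igf1, 0.71, was the lowest of the 10 groups. In control at PND 100 the fibroblast sums were 14.6 to 29.6 times and the mean Igf1 was 1.87. Of 10 fibroblast markers, 10 rose in EB+T+E against control at PND 145, with a summed level of 39.2 to 52.3 times the 75th percentile on EB+T+E arrays and 10.6 to 13.4 times on control arrays. All 11 macrophage markers tested rose (56.7 to 83.3 times in EB+T+E, 5.91 to 13.3 times in control), as did all 10 T and B lymphocyte markers (11.7 to 40.1 times in EB+T+E, 0.401 to 0.638 times in control) and 10 of 11 neutrophil markers. Of the neutrophil markers, Elane and Ngp were well above background on 0 of the 33 arrays, Mpo on 1 and Ctsg on 2. Against EB at PND 145, 5 fibroblast, 10 macrophage, 10 lymphocyte and 10 neutrophil markers rose in EB+T+E. Of all genes, 35.3% were called in EB+T+E against control and 22.9% against EB at that age. The array with the highest Igf1, EB+T+E array 1 of PND 100, also had the highest fibroblast sum, 106 times the 75th percentile, and the lowest luminal epithelial sum, 15.7 times. With T+E alone, 0 markers of any of these lists were called at either age. The part of these cells in the Igf1 difference was not tested.

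**Figure D3:**
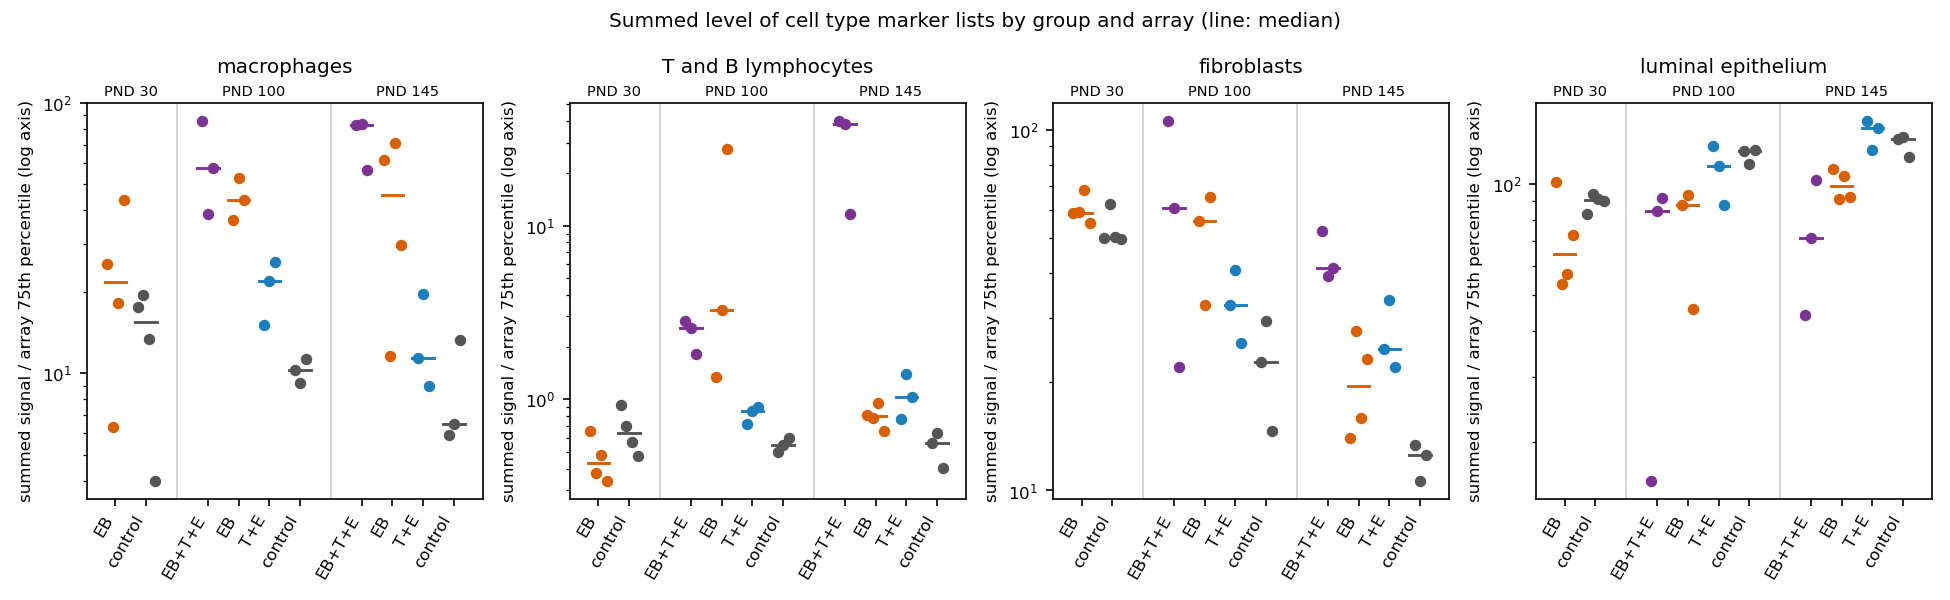
Summed level of marker lists (times the array's 75th percentile, log axis) on every array, by age and group, with the group median as a line. On EB+T+E arrays of PND 145 the fibroblast sums are 39.2 to 52.3 and the macrophage sums 56.7 to 83.3, above all control arrays of that age, and the luminal epithelial sums are 44.3 to 103, below them.

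Of 15 other genes of the insulin-like growth factor (IGF) axis, 0 were called with EB alone or T+E alone against control at any age. With both exposures, 1 rose and 4 fell against control at PND 100, and 3 rose and 4 fell at PND 145, beside 12.6% and 35.3% of all genes called. The IGF1 receptor gene Igf1r fell by 2.06 ± 0.37 at PND 100 and by 1.83 ± 0.37 at PND 145 (limma adjusted p = 0.00143 and 5.46e-04). Igf2r, the receptor that clears IGF2, fell by 1.16 ± 0.32 and by 1.49 ± 0.32 (limma adjusted p = 0.0197 and 0.00109). Igfbp2, a secreted IGF-binding protein, fell by 1.63 ± 0.46 at PND 100 (limma adjusted p = 0.0212), and Stat5b, a transcription factor downstream of growth hormone, fell by 1.92 ± 0.36 at PND 145 (limma adjusted p = 2.42e-04). Against EB at PND 145, Igfbp5, another binding protein, rose in EB+T+E by 1.54 ± 0.51 and Igf2r fell by 0.85 ± 0.30 (limma adjusted p = 0.0309 and 0.0435).

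Wnt4 was called in no comparison, except under 1 alternative setting, array weights. That setting called it lower in EB than in control at PND 30 (limma adjusted p = 0.0377). It also called it higher in EB+T+E than in T+E at PND 100 (limma adjusted p = 0.0453). At PND 145, it stood at -4.03, -3.86 and -4.05 on EB+T+E arrays, -3.50, -2.09, -3.40 and -3.47 on EB arrays, -3.26, -3.38 and -3.50 on T+E arrays, and -2.82, -3.32 and -3.43 on control arrays. The EB+T+E arrays lay below all other arrays of that age. The difference was -0.79 ± 0.41 from control, -0.87 ± 0.39 from EB and -0.60 ± 0.41 from T+E (limma adjusted p = 0.139, 0.105 and 0.317). At PND 30, the EB arrays, at -2.74, -2.90, -3.41 and -3.42, were mostly below the control arrays, at -2.17, -2.65, -1.92 and -2.74, by 0.75 ± 0.36 log2 units on average (limma adjusted p = 0.413). At PND 100, Wnt4 averaged -3.06 ± 0.77 in EB+T+E, -2.88 ± 0.67 in EB, -3.36 ± 0.72 in T+E and -2.76 ± 0.49 in control (SD, n = 3 each), and all groups overlapped.

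Of 28 other Wnt ligands, receptors and targets, 0 were called with EB alone or T+E alone against control. Of them, 1 rose and 5 fell in EB+T+E against control at PND 100, and 3 rose and 4 fell at PND 145, beside 12.6% and 35.3% of all genes called. At PND 100, the genes named are commonly used as readouts of canonical Wnt signalling: Lef1 fell by 2.99 ± 0.56, Nkd1 fell by 2.25 ± 0.48 and Axin2 fell by 3.09 ± 0.80 (limma adjusted p = 0.00183, 0.00396 and 0.0126). At PND 145, Nkd1 fell by 2.54 ± 0.48 and Ctnnb1, which encodes beta-catenin, by 0.57 ± 0.18 (limma adjusted p = 2.63e-04 and 0.0174). Tcf7, a Wnt-dependent transcription factor that T cells also express strongly, rose by 2.90 ± 0.50 (limma adjusted p = 9.88e-05), beside the 10 of 10 lymphocyte markers that rose there.

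The mean of Ctsd was below control in every group with neonatal EB, and with T+E alone it was below control at PND 100 and close to it at PND 145. At PND 100, it stood at 4.93, 4.99 and 4.27 on EB arrays, against 5.59, 5.56 and 5.25 on control arrays, with no overlap. It fell by 0.74 ± 0.20 log2 units, a level 1.67-fold lower in EB (limma adjusted p = 0.0489). This call was lost without any control array (limma adjusted p = 0.0774 to 0.183) or without EB array 3 (-0.51, 0.462), and without the 2 control arrays high in seminal vesicle products (-0.85, 0.0894). It was lost under 8 of 11 alternative settings, among them the replicate block (limma adjusted p = 0.0613). The EB arrays of PND 145 stood at 4.99, 5.00, 4.64 and 4.79, again below the control arrays at 5.54, 5.61 and 5.47. The difference was -0.68 ± 0.19 (limma adjusted p = 0.0971) and was not called. At PND 30, the EB arrays stood at 5.28, 4.44, 4.51 and 4.43, against 4.93, 5.27, 5.23 and 5.18 on control arrays. EB array 1, at 5.28, was above all controls and the other 3 were below them. The difference was -0.49 ± 0.18 (limma adjusted p = 0.273), and without EB array 1 it was -0.69 and called (limma adjusted p = 0.0245).

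With EB and T+E together at PND 145, Ctsd stood at 4.47, 4.89 and 5.02 on EB+T+E arrays, against 5.41, 5.27 and 5.59 on T+E arrays and 5.54, 5.61 and 5.47 on control arrays. It was 1.68-fold lower than in control (-0.75 ± 0.20, limma adjusted p = 0.00684) and 1.55-fold lower than in T+E (-0.63 ± 0.20, limma adjusted p = 0.0286), with no overlap in either case. EB+T+E minus EB was -0.07 and T+E minus control -0.11 ± 0.20 (limma adjusted p = 0.829 and 0.944). Of the arrays left out in turn, only the loss of EB+T+E array 1 ended the call against control (-0.58, limma adjusted p = 0.0590). The call against T+E was lost without EB+T+E array 1 (-0.47, 0.178), EB+T+E array 2 (-0.68, 0.0537), T+E array 1 (-0.64, 0.0700) or T+E array 3 (-0.55, 0.133). At PND 100, Ctsd averaged 4.90 ± 0.26 in EB+T+E, 5.04 ± 0.08 in T+E and 5.47 ± 0.19 in control (SD, n = 3 each), and neither difference from control was called (limma adjusted p = 0.0648 and 0.581), although the arrays of both groups lay below all control arrays. T+E minus control was -0.43 ± 0.20 there, and -0.12, -0.56 and -0.60 within slides. The EB+T+E difference from control there was called without EB+T+E array 2 (-0.70, 0.0368).

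The Ctsd differences depended on the scaling. The median of all genes at PND 145 was shifted by -0.24 in EB+T+E relative to control and by -0.16 relative to T+E. With quantile normalization, which equalises the distribution of the arrays, Ctsd at PND 145 differed by -0.19 in EB+T+E relative to control and by -0.05 relative to T+E (limma adjusted p = 0.429 and 0.865). In EB against control the quantile values were -0.21 at PND 30, -0.39 at PND 100 and -0.44 at PND 145. Luminal epithelial markers were lower in some of the same groups, but did not follow Ctsd throughout. Their summed level was 45.8 to 93.8 times the 75th percentile on EB arrays of PND 100, against 114 to 124 times on control arrays. The EB array with the lowest Ctsd at PND 100, array 3, had the lowest of these luminal sums. At PND 30, EB array 1, the one with high Ctsd, had the highest luminal sum of the EB arrays, 101 times, against 53.8 to 72.6 times on the other EB arrays and 83.0 to 94.2 times on control arrays. Of the 10 luminal markers, 0 were called in EB against control at any age, while 4 fell and 1 rose in EB+T+E against control at PND 145, where their sums were 44.3 to 103 times in EB+T+E and 118 to 134 times in control. Of all genes, 35.3% were called in EB+T+E against control at PND 145. Other arrays did not follow this order. EB+T+E array 1 of PND 100, with the lowest luminal sum (15.7 times), had a Ctsd of 4.65, above the 4.27 of EB array 3. Control at PND 30 had a mean Ctsd of 5.15 with luminal sums of 83.0 to 94.2 times. EB at PND 145 had a mean of 4.86 with 91.0 to 110 times. The part of the luminal markers in the Ctsd difference was not tested.

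Of 22 other lysosomal genes, 0 fell in EB against control at any age. Among them, 1 rose in EB against control at PND 100, the protease gene Ctss of antigen-presenting cells (1.66 ± 0.44, limma adjusted p = 0.0427), and 0 were called at PND 30 and PND 145 or with T+E alone. Of all genes, 2.69% were called in EB against control at PND 100. Whether the Ctss call was kept without the 2 control arrays high in seminal vesicle products is not given. Of the 22, 5 rose and 3 fell in EB+T+E against control at PND 100, and 7 rose and 5 fell at PND 145, beside 12.6% and 35.3% of all genes called. At PND 145, Ctss rose by 3.16 ± 0.44, Ctsb, a cysteine protease of most cells, by 1.21 ± 0.20 and Ctsk, a collagen-degrading protease, by 2.01 ± 0.34 (limma adjusted p = 1.21e-05, 8.54e-05 and 1.04e-04). Against EB at PND 145, 8 rose in EB+T+E, among them Ctsb, Ctss and Ctsa, and 0 fell, beside 22.9% of all genes called. Ctss rose where macrophage markers did: 5 of 11 macrophage markers rose in EB against control at PND 100 (36.9 to 52.7 times the 75th percentile in EB, 9.20 to 11.3 times in control).

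Ltf was not measurable. Its probe was well above background on 0 of the 33 arrays, at levels from -10.17 to -8.27, and group means ranged from -9.96 in EB at PND 30 to -9.00 in T+E at PND 100. A fit without the filter on dim probes gave limma adjusted p-values of 0.395 to 1.00 for it. No statement on its regulation can be made from these arrays.

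Promoter sequence was at hand for 4 of the 6 genes, Ctsd, Igf1, Ltf and Wnt4 (RefSeq, build GRCr8; 250 bases before to 50 after the start). S100g and Greb1 were not matched. The palindromic estrogen response element GGTCANNNTGACC was in 0 of the 4 windows and in 9 of 33469 rat promoters of the same length (0.0269%). An arm of it, GGTCA on either strand, was in 3 of the 4, and in 13557 of the 33469 (40.5%), so its presence sets the 3 genes apart little. The arms lie 6 and 4 bases before the start used for Ctsd and Igf1 and 45 bases before that of Ltf. The Igf1 window, chr7:24172282-24172581, lies inside the gene, whose span begins at 24169608, so its start is not the outermost of Igf1. The arms are shown because a reader would look for the element there, with the arm in capitals. The Ctsd stretch is chr1:206968798-206968852 on the minus strand, the Igf1 stretch chr7:24172503-24172557 and the Ltf stretch chr8:119878274-119878328, both on the plus strand.
Ctsd: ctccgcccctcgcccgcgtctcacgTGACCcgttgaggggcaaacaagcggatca
Igf1: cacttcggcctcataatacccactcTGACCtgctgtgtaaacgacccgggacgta
Ltf: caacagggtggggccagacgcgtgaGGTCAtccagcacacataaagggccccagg

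Among the receptors, Gper1 fell by 2.84 ± 0.65 in EB against control at PND 145 (limma adjusted p = 0.0395) and by 2.90 ± 0.69 in EB+T+E against control (limma adjusted p = 0.00238). Its differences in EB against control were -2.00 at PND 30 and -1.93 at PND 100, not called (limma adjusted p = 0.176 and 0.103). Whether the Gper1 call in EB was kept without the 2 control arrays high in seminal vesicle products is not given. Esr1 was not called in EB against control (1.19 at PND 30, 0.57 at PND 100 and 0.80 at PND 145), but in EB+T+E at PND 145 it fell by 1.22 ± 0.44 against EB and by 1.36 ± 0.47 against T+E (limma adjusted p = 0.0476 and 0.0424). Esr2 was not called against control in any hormone group. Pgr, the progesterone receptor gene and itself an estrogen target, rose by 2.35 ± 0.69 in EB+T+E over control at PND 145, at least 1.76-fold (limma adjusted p = 0.0105), and was higher in EB than in control at PND 100 by 2.04 ± 0.69, at least 1.96-fold, without being called (limma adjusted p = 0.0860). Foxa1, which opens chromatin for ESR1, fell by 2.33 ± 0.45 and by 1.55 ± 0.45 in EB+T+E against control at PND 100 and PND 145 (limma adjusted p = 0.00216 and 0.00955). In all, 0 of 15 receptors and cofactors were called in T+E against control at PND 100 and PND 145, beside 0.193% and 0.382% of all genes. In EB against control at PND 145, 0.571% of all genes were called. For EB+T+E against control the shares were 12.6% at PND 100 and 35.3% at PND 145. At PND 145 they were 22.9% against EB and 21.3% against T+E.

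A list of 35 further genes known as estrogen targets in uterus or breast was counted in the same way. In EB against control, 3 rose at PND 100, beside 2.69% of all genes called, and 0 were called at PND 30 and PND 145. The 3 were complement C3 (3.98 ± 1.02), the mucosal peptide gene Tff1 (2.45 ± 0.66, at least 1.09-fold higher) and the chemokine gene Cxcl12 (1.72 ± 0.46), with limma adjusted p = 0.0371, 0.0435 and 0.0445. These calls lay close to the threshold. Whether they were kept without the 2 control arrays high in seminal vesicle products is not given. In T+E against control, 0 of 35 were called at either age. When EB and T+E were combined, 4 rose and 2 fell against control at PND 100, and 9 rose and 2 fell at PND 145, with a median log2 difference of 0.19 beside -0.24 for all genes. Of all genes, 12.6% were called at PND 100 and 35.3% at PND 145. C3 rose by 5.03 ± 1.02 at PND 100 and by 7.01 ± 1.02 at PND 145 (limma adjusted p = 0.00286 and 1.71e-05), and Tff1 by 3.10 ± 0.66 at PND 145, at least 1.77-fold (limma adjusted p = 8.43e-04). Egf, a growth factor gene, fell by 3.88 ± 0.78 at PND 145 (limma adjusted p = 5.18e-04). C3 is also made by macrophages and fibroblasts, whose markers rose there. Of 10 epithelial calcium transport genes, the setting in which calbindin-D9k works in gut, 0 were called against control in any hormone group, although S100g was called in EB+T+E at both adult ages.

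Neonatal EB alone and T+E alone were also set against each other. S100g was lower in EB than in T+E at PND 145 (fitted log2 difference -4.10 ± 1.10, limma adjusted p = 0.0345), the only member called there (1 of 5; 3.52% of all genes called). The EB arrays, from -8.93 to -7.01, lay wholly below the T+E arrays, from -4.55 to -3.26, and 3 of the 4 EB arrays were not well above background, so no fold is given. The difference was -3.75 and -3.82 on the 2 slides that held both groups. The call was lost without EB array 1, 3 or 4 or any T+E array (-4.36 to -3.71, limma adjusted p = 0.0708 to 0.121), and with the slide as a block (-4.04, 0.0842). At PND 100, S100g differed by -3.13 ± 1.17 (limma adjusted p = 0.142), again without overlap, and 0 of 5 members were called (1 had an unadjusted p under 0.05 in limma; 1.72% of all genes called). Greb1 was lower in EB than in T+E at PND 145 by 2.18 ± 0.66, not called (limma adjusted p = 0.0647), and called without EB array 2 (-2.96, limma adjusted p = 0.00423). Ctsd was lower in EB at PND 145 by 0.57 ± 0.19, not called (limma adjusted p = 0.102), though the arrays did not overlap.

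**Figure D4:**
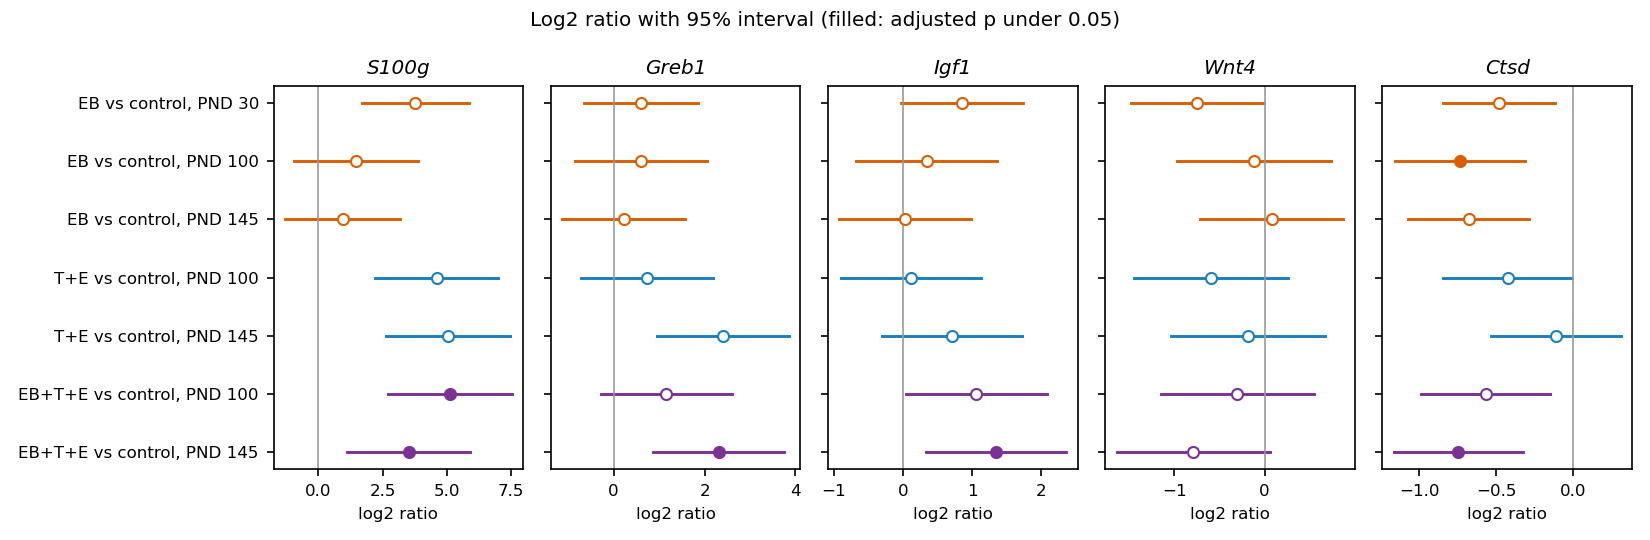
Log2 difference of the 5 measurable members relative to control in each hormone group and age, from EB at the top to EB+T+E at the bottom (points, filled where called; bars are 95% intervals). S100g and Greb1 at PND 145 lie at 3.52 and 2.31 in EB+T+E and at 5.05 and 2.41 in T+E, while Ctsd lies at -0.68 in EB and -0.11 in T+E.

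The arrays were run on 5 slides, of which slides 1 to 4 held arrays of several groups and the fifth held 1 array, EB array 4 of PND 145. With the slide as a block, the calls against control remained: S100g in EB+T+E at PND 100 and PND 145 (5.24 and 3.45, limma adjusted p = 0.00932 and 0.0401), Greb1 and Igf1 in EB+T+E at PND 145 (2.30 and 1.45, 0.0261 and 0.0318), Ctsd in EB at PND 100 (-0.74, 0.0495) and Ctsd in EB+T+E at PND 145 (-0.72, 0.0186). Of the others, the Greb1 call over EB at PND 145 remained (2.13, limma adjusted p = 0.0474), and those of Igf1 over EB (1.33, 0.0580) and of Ctsd against T+E (-0.60, 0.0609) were lost. Within the slides that held both groups, S100g in EB+T+E minus control was 7.70 and 5.22 at PND 100 and 3.30 and 3.02 at PND 145. At PND 145, EB+T+E minus control within slides was 2.59 and 2.46 for Greb1, 2.12 and 1.32 for Igf1 and -0.72 and -0.45 for Ctsd. EB+T+E minus EB was 3.42, 0.24 and 2.72 for Greb1 and 1.62, 0.74 and 1.64 for Igf1, and EB+T+E minus T+E was -0.38 and -0.57 for Ctsd. In EB minus control, Ctsd was 0.36, -0.72, -0.84 and -0.74 on the 4 slides at PND 30, -0.26 and -1.32 at PND 100 and -0.61 and -0.82 at PND 145. Each within-slide value given here kept the sign of its comparison except that of Ctsd on slide 1 at PND 30, the slide of EB array 1.

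Tests of the differences themselves gave no call for any member. In the interaction of EB and T+E, 0 of 5 were called at PND 100 (0 with an unadjusted p under 0.05 in limma; 0% of all genes called) and 0 of 5 at PND 145 (0 with an unadjusted p under 0.05 in limma; 0.764%). For S100g the interaction was -0.95 ± 1.66 at PND 100 and -2.48 ± 1.61 at PND 145 (limma adjusted p = 0.915 and 0.523), and since its control levels and most of its EB levels were not well above background, no direction is read from them. In the EB difference of PND 100 minus that of PND 30, 0 of 5 were called (0 with an unadjusted p under 0.05 in limma; 0.0215% of all genes), and in that of PND 145 minus PND 100, 0 of 5 (0 with an unadjusted p under 0.05 in limma; 0%). In the T+E difference of PND 145 minus PND 100, 0 of 5 were called (0 with an unadjusted p under 0.05 in limma; 0.0258%). Between ages, 0 of 5 were called in control at PND 100 against control at PND 30 (Igf1, given above, had an unadjusted p under 0.05 in limma, 1 of 5; 2.24% of all genes called), and in control at PND 145 against control at PND 100, 0 of 5 (0 with an unadjusted p under 0.05 in limma; 0%).

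Ordering the 10 groups by mean level, most neighbours could not be told apart. Of the 9 neighbouring pairs, the gap was beyond the larger SD of the pair in 1 for S100g, between EB+T+E at PND 145 and EB at PND 100 (2.11 log2 units). The means of the implant groups and of EB at PND 30 lay above this gap, but single arrays overlapped across it. EB array 1 of PND 30 (-8.04) and EB+T+E array 3 of PND 100 (-6.76) lay below EB array 2 of PND 100 (-6.46). For Greb1 there were 2 such gaps, EB+T+E at PND 145 over EB+T+E at PND 100 (0.91) and control at PND 145 over control at PND 30 (0.59). For Wnt4 there was 1, T+E at PND 145 over EB+T+E at PND 145 (0.60), for Igf1 1, EB over control at PND 30 (0.85), and for Ctsd 1, T+E at PND 145 over control at PND 30 (0.27).

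Over the 33 arrays, which share group and tissue makeup, the genes most like each member among 15653 were found by Pearson's r, given as a description. For S100g these were Ids, Ednrb and Lsmem2 (r = 0.80, 0.78 and 0.77; Spearman's rho = 0.81, 0.79 and 0.69). For Greb1 they were Bst1, Plac8 and Ccn5 (r = 0.81, 0.79 and 0.78; rho = 0.83, 0.74 and 0.78). For Wnt4 they were Dmrt2, B3gnt8 and Hpn (r = 0.81, 0.76 and 0.74; rho = 0.80, 0.73 and 0.72). For Igf1 they were Vegfd, Igfbp4 and Cebpb (r = 0.84, 0.83 and 0.82; rho = 0.82, 0.84 and 0.76). For Ctsd they were Map2k2, Cisd1 and Gas1 (r = 0.90, 0.90 and 0.89; rho = 0.85, 0.92 and 0.86). Among the members, Greb1 and Igf1 ran most alike (r = 0.76, rho = 0.80), followed by S100g with Greb1 (0.58 and 0.56) and S100g with Igf1 (0.55 and 0.49).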

How the data were processed

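Total RNA of 33 rat prostates was labelled with Cy3 and hybridised to 1-colour Agilent arrays; per the file headers, Agilent Feature Extraction (version 12.0.0.7) turned the images into values. The deposited values are spot intensities on a linear scale, background-subtracted per the file headers by the authors' scanner software, with no scaling across arrays. The value table the authors deposited, also an intensity, is scaled so that each array's 75th percentile is 619.357 to 619.517, and within arrays its log values correlated with the scanner values at 0.999982 or more.

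Processed signals were divided by the array's 75th percentile and log2-transformed. Spots of a probe were averaged, outlier spots left out, and probes kept if 3 or more of the 33 arrays had them well above background (30543 of 45598). The brightest probe stood for each gene. Where probes disagree, this is stated. Of the probes, 24451 were named by accession, 6446 by symbol and 318 by synonym through a RefSeq table; 4903 kept the name in the files and 9465 had none. limma 3.58.1 (R 4.3.3) fitted the 10 groups together, with trended and robust variances, and p-values were adjusted per comparison (20 in all) by Benjamini-Hochberg, with a threshold of 0.05. The fit was tested on simulated data.

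The members, gene lists and marker lists were chosen with earlier results of these data known. The text names the members, Esr1, Esr2, Gper1 and Pgr, up to 3 called genes of each list per comparison by smallest p, and the 3 genes most like each member; 1 further gene of the naming rule is not reported here. Alternatives were another background correction, scaling, filters, probe summary, slide and replicate blocks, array weights, the compared groups alone, the deposited table and each array left out. Same-numbered arrays did not deviate together (median correlation of deviations 0.0537 over 138 pairs, from -0.468 to 0.458), so replicate numbers were not taken as pairs. Tables were handled with Python 3.11.15 and pandas 2.3.3, and figures with matplotlib 3.10.9.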

Additional observations from a re-analysis of the deposited data

Results flagged for a closer look

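In 3 of the 18 groups of 4 arrays and members that could be examined this way, 1 array stood apart from the others of its group; chance gives about 1 in 20. Wnt4 in EB at PND 145 stood at -2.09 on array 2, above the other 3 EB arrays at -3.50 to -3.40. Igf1 in control at PND 30 stood at -0.41 on array 2, below the other 3 at 1.00 to 1.20. Ctsd in EB at PND 30 stood at 5.28 on array 1, above the other 3 at 4.43 to 4.51. The same EB array of PND 30 had the lowest S100g of its group, -8.04, not well above background.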

How the results depend on the processing

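No member ratio that was called changed direction under any alternative run. Over the settings other than left-out arrays, 1017 member ratios kept their side of the threshold, 27 gained a call and 29 lost one. Another 7, not called, were counted apart as having moved across 0. With 1 array left out, 755 kept it, 7 gained a call, 35 lost one and 3 crossed 0 without being called. The number of members called in EB against control at PND 100 was 0 instead of 1 with normexp, quantile scaling, no filter, the mean of all probes, the replicate block, the deposited table, only the groups compared, and without the 2 control arrays high in seminal vesicle products (chosen after seeing the data). In T+E against control it was 1 at PND 100 with only the groups compared, and 1 at PND 145 with that, quantile scaling, the mean of all probes or the deposited table. In EB+T+E against control it was 0 at PND 100 with normexp or only the groups compared, and 2 at PND 145 with normexp or without the 2 control arrays. It was also 0 at PND 100 with a filter of 17 arrays, which left S100g, well above background on 16 arrays, untested. In EB+T+E against control at PND 145, Igf1 was not called under 3 of 11 alternative settings. The number there was also below 4 with quantile scaling, where Ctsd was not called, and with the filter of 17 arrays. In EB+T+E against EB at PND 145 it was 1 with normexp, no filter, the mean of all probes or the slide block, and 0 with the replicate block. At PND 145 it was 0 for EB+T+E relative to T+E with quantile scaling, the slide block or only the groups compared. In EB against T+E at PND 145 it was 0 with normexp, the slide block or the replicate block, and 2 with quantile scaling or the deposited table. It was also 0 there with the filter of 17 arrays, under which S100g was again not tested. Array weights gave more calls: 3, 2 and 1 in EB against control at PND 30, 100 and 145, 2 in T+E against control at both ages, 4 in EB+T+E against control and 1 for EB+T+E relative to T+E, both at PND 100, 1 and 3 in EB against T+E at PND 100 and 145, and 2 in control at PND 100 against PND 30. The causes were not tested. With 1 array left out, the number ranged from 0 to 2 in EB against control at PND 30 and 0 to 1 at PND 100, 0 to 2 and 1 to 4 in EB+T+E against control at PND 100 and 145, 0 to 1 and 0 to 2 in EB+T+E against EB, 0 to 1 at both ages in EB+T+E against T+E, and 0 to 2 in EB against T+E at PND 145; it was 0 in all others. Over all genes, EB against control at PND 100 gave 627 calls, from 0 (only the groups compared) to 5363 (array weights), EB+T+E against control at PND 100 gave 2938 (0 to 6228) and at PND 145 8231 (5595 to 12593), T+E against control at PND 145 gave 89 (23 to 1429), and EB against control at PND 30 gave 9 (5 to 5390). Without the 2 control arrays, calls over all genes were 48 instead of 627 in EB and 0 instead of 45 in T+E against control at PND 100, 2 instead of 133 in EB against control at PND 145, and 1633 in EB+T+E against control at PND 100. Dim signal limits S100g and Ltf, whose control levels are only bounds.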
